A study of Mus musculus with 20 samples.

Results

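Prostaglandins are short-lived lipid signals made from arachidonic acid by the cyclooxygenases, and they act on neighbouring cells through receptors coupled to G proteins. Prostaglandin E2 has the receptors EP1 to EP4 (genes Ptger1, Ptger2, Ptger3 and Ptger4), prostaglandin F2α has FP (Ptgfr), prostacyclin has IP (Ptgir), prostaglandin D2 has DP1 (Ptgdr) and DP2, also called CRTH2 (Ptgdr2), and thromboxane A2 has TP (Tbxa2r). EP2, EP4, IP and DP1 couple to Gs and raise cAMP, EP3 and DP2 couple mainly to Gi and lower it, and EP1, FP and TP act mainly through calcium; in the uterus these signals take part in vascular permeability and decidualization at implantation and in contraction of the myometrium. The 9 genes are the whole family of prostanoid receptors in the mouse and were taken as a family, by name. They are 9 of the 45777 genes in the deposited table and 9 of the 18706 genes that were tested, and all 9 had values above 0 in all 20 libraries.

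The tissue was whole uterine horn from mated B6D2F1 females, a cross between C57BL/6 and DBA/2 strains, aged 8 to 12 weeks. It was collected before the time of embryo attachment. Whether each horn held embryos is not given in the sources used here. Days were counted with the morning when a plug was found as day 0.5, and every horn was collected at hour 18 of day 3.5. The control group (5 mice) was left untreated. The IF group (implantation failure, 5 mice) received 3 mg/kg of RU486, an antagonist of the progesterone and glucocorticoid receptors, under the skin on the morning of day 3.5. The PBMC group (5 mice) received 50000 peripheral blood mononuclear cells per horn on day 1.5 and the same RU486 on day 3.5; the cells came from non-pregnant mice and had been cultured. The PBMC-hCG group (5 mice) was treated in the same way with cells cultured with 5 IU/mL of human chorionic gonadotropin. No library came from a mouse injected with medium alone, so a comparison of an injected group with IF covers the injection and the cells together. For PBMC-hCG it covers the hormone too. The labels give no batch or date, so no value within a batch can be given.

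Levels are in TPM, the share of each gene in the transcripts of a library, scaled to the same total in every library and corrected for transcript length, so genes can be compared with each other on it. The 20 libraries sum to between 999989 and 999999 TPM and give no read counts, so their depth is unknown. The median number of genes above 0 TPM was 23213 in control, 23286 in IF, 22957 in PBMC and 23649 in PBMC-hCG. Differences between groups are log2 fold changes of TPM with 0.1 added, from a single limma fit of all 20 mice, given with a standard error (SE). A gene was called when its p-value, adjusted over the 18706 genes of that comparison, was under 0.05. The 6 comparisons share mice (the IF mice serve in 3 of them), so their values are given side by side and are not independent.

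The receptors for prostaglandin E2 held most of the family's transcripts. In control mice the 9 genes summed to 142 ± 16.8 TPM (mean ± SD, n = 5), and the 4 EP genes made up 88.2 ± 1.11% of that sum. By mean level the control order was Ptger4, Ptger3, Ptger2, Ptgfr, Ptgir, Ptger1, Tbxa2r, Ptgdr2 and Ptgdr. Ptger4 at 52.8 ± 9.54 TPM and Ptger3 at 47.9 ± 6.74 TPM overlapped, and Ptger4 was the higher of the pair in 3 of 5 control mice. Ptger2 at 20.9 ± 6.93 TPM lay below both and above Ptgfr at 5.49 ± 1.63 TPM without overlap, whereas each later neighbour in the order overlapped with the next. In the IF group Ptger4, at 44.9 ± 11.2 TPM, remained first by mean and Ptger3, at 10.3 ± 2.19 TPM, came after Ptger2 at 21.8 ± 7.88 TPM, with no overlap between Ptger3 and Ptger2. Ptgdr2 came next in IF mice at 4.79 ± 1.14 TPM, whereas in control mice, at 1.82 ± 0.35 TPM, it was above Ptgdr alone. In both injected groups the first 4 genes by mean were Ptger4, Ptger2, Ptger3 and Ptgfr, and Ptgdr was last in all 4 groups.

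**Figure D1:**
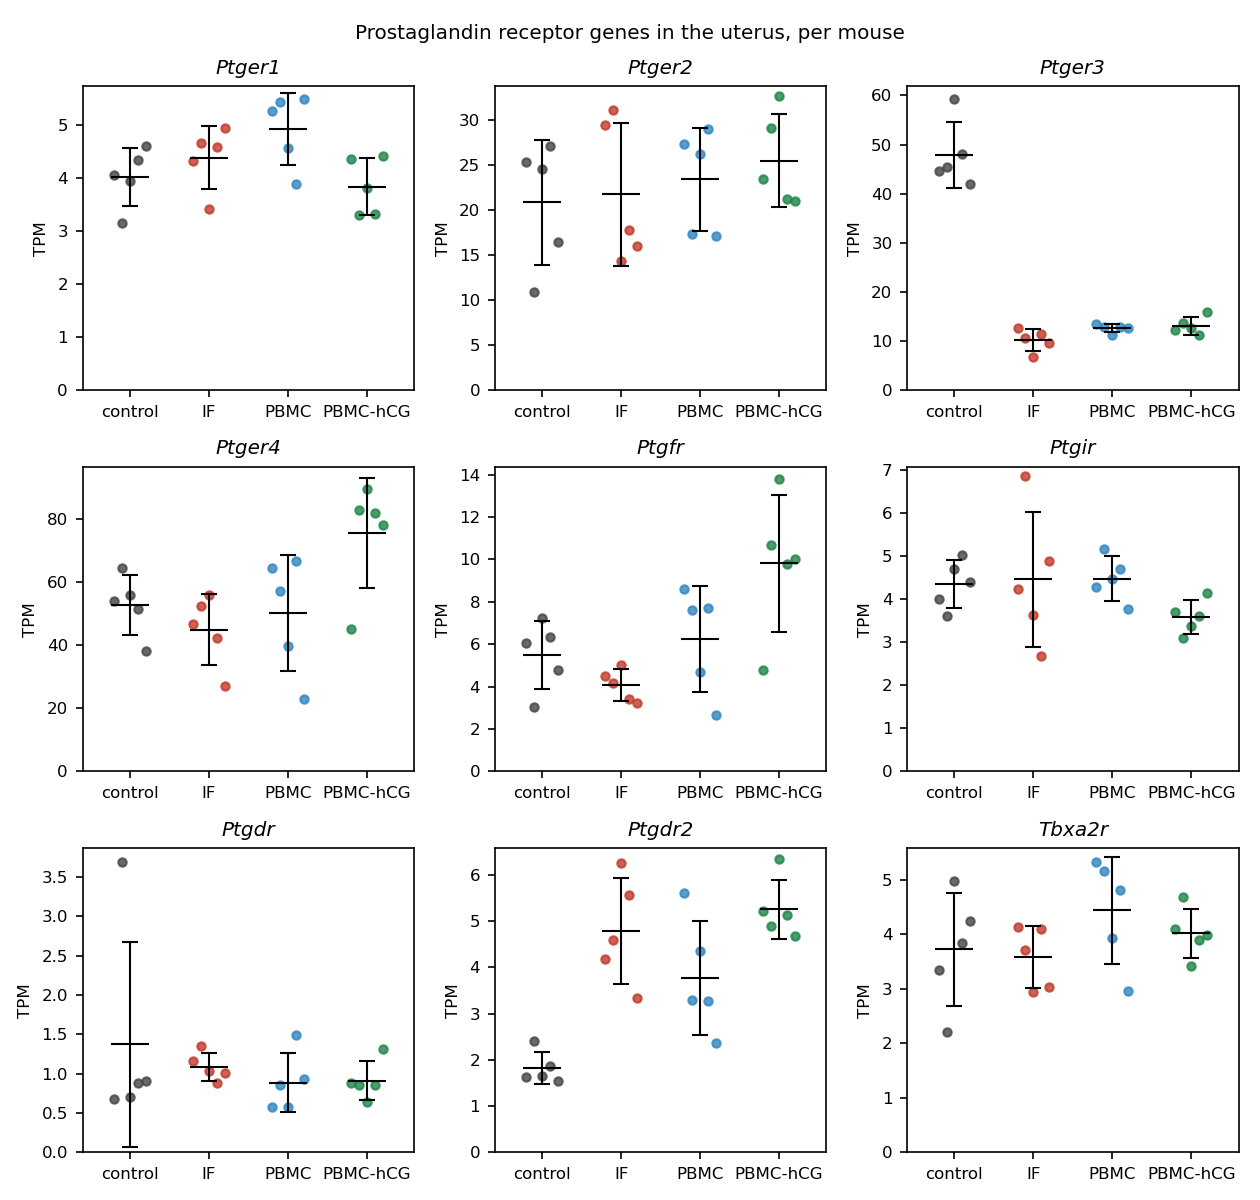
Level of each of the 9 prostaglandin receptor genes (vertical axis, TPM, a separate scale in each panel) in the 4 groups (horizontal axis), with a point for each of the 5 mice of a group and a black line with bars for the mean ± SD. Ptger3 lies between 42.0 and 59.3 TPM in the control mice and between 6.88 and 15.9 TPM in the other 15 mice.

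The comparison of IF with control asks what RU486 on the morning of day 3.5 did to the uterus by the evening. Of the 9 receptor genes, 1 was called higher and 1 lower, and 7 were not called; among all 18706 genes 13.4% were called higher and 8.53% lower. The median log2 fold change was -0.02 over the 9 receptors and 0.02 over all genes. The gene called lower was Ptger3, which encodes the EP3 receptor, known in several forms that differ in their tails by splicing. Ptger3 measured 44.6, 45.4, 59.3, 48.1 and 42.0 TPM in the control mice and 12.7, 10.7, 6.88, 11.4 and 9.62 TPM in the IF mice. The highest IF mouse was far below the lowest control mouse, and IF 3 was the lowest of all 20 mice. The fall was 4.69-fold, with a log2 fold change of -2.23 (SE 0.13, 95% confidence interval -2.51 to -1.95, adjusted p 2.84e-09), which placed Ptger3 at rank 7 of the tested genes by p-value. Ptger3 also had the highest spread of the family over the 20 mice, with a coefficient of variation of 77.7%, whereas Ptger1 had 16.1%.

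The gene called higher in IF was Ptgdr2, whose receptor DP2 is best known for drawing type 2 helper T cells and eosinophils toward prostaglandin D2. Ptgdr2 measured 1.63, 2.41, 1.66, 1.87 and 1.54 TPM in the control mice and 4.18, 4.59, 6.26, 5.57 and 3.35 TPM in the IF mice. The lowest IF mouse, IF 5, was above the highest control mouse, control 2. The log2 fold change was 1.33 (SE 0.2, 95% confidence interval 0.91 to 1.75, adjusted p 0.000106), a 2.52-fold rise. The other receptor for prostaglandin D2, Ptgdr, had a log2 fold change of -0.01 (adjusted p 0.984) and rested on control 2, at 3.69 TPM against 0.682 to 0.907 TPM in the other control mice; without that mouse it was 0.4 (adjusted p 0.208).

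Both differences were also found when the injected groups were set against the same 5 control mice. That comparison asks how far the treated uterus was from that of untreated mated mice. In PBMC against control 1 receptor was called higher (12.8% of all genes), 1 lower (6.7% of all genes) and 7 were not called; in PBMC-hCG against control the counts were again 1 higher (20.2% of all genes), 1 lower (11.6% of all genes) and 7 not called. In each case the gene called lower was Ptger3 and the gene called higher was Ptgdr2. Ptger3 measured 13.5, 13.0, 11.3, 13.0 and 12.7 TPM in the PBMC mice and 12.2, 13.7, 12.6, 11.3 and 15.9 TPM in the PBMC-hCG mice. All 10 injected mice were below all control mice. The log2 fold change of Ptger3 was -1.9 (SE 0.13, adjusted p 3.02e-08) in PBMC and -1.86 (SE 0.13, adjusted p 3.67e-08) in PBMC-hCG, falls of 3.73-fold and 3.62-fold. Ptgdr2 measured 5.60, 3.29, 4.35, 3.27 and 2.36 TPM in the PBMC mice and 5.22, 4.90, 6.34, 5.14 and 4.69 TPM in the PBMC-hCG mice. In PBMC 4 of 5 mice were above all control mice, with PBMC 5 just under control 2, and in PBMC-hCG all 5 were above. The log2 fold change of Ptgdr2 was 0.97 (SE 0.2, adjusted p 0.00205) in PBMC and 1.49 (SE 0.2, adjusted p 3.36e-05) in PBMC-hCG. The median over the 9 receptors was 0.13 in PBMC and 0.15 in PBMC-hCG, beside 0.05 and 0.08 over all genes.

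The comparisons of PBMC and PBMC-hCG with IF ask what differed in uteri exposed to RU486 when cells had been injected, with the injection itself included. In PBMC against IF limma called none of the 9 receptors (0% of all genes were called higher and 0% lower), and at an unadjusted p under 0.05 there was 1 receptor and 1271 genes. That receptor was Ptger3, with a log2 fold change of 0.33 (SE 0.13, adjusted p 0.701), and 4 of 5 PBMC mice were above all IF mice. In PBMC-hCG against IF 1 receptor was called higher (7.61% of all genes), 0 lower (5.99% of all genes) and 8 were not called, and at an unadjusted p under 0.05 there were 3 receptors of 9 and 6547 genes of 18706. The 2544 genes called in this comparison, on which its shares of all genes rest, became 0 without IF 5 or PBMC-hCG 3, 1 without PBMC-hCG 2, 8 without IF 2, 14 without IF 4, 18 without PBMC-hCG 4, 34 without PBMC-hCG 5, 4166 without PBMC-hCG 1 and 5061 without IF 3. The median over the 9 receptors was 0.14 in PBMC and 0.17 in PBMC-hCG, beside 0.02 and 0.05 over all genes.

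The gene called in PBMC-hCG against IF was Ptgfr, the receptor through which prostaglandin F2α contracts the myometrium and ends the life of the corpus luteum in the ovary. Ptgfr measured 4.51, 4.16, 5.02, 3.42 and 3.23 TPM in the IF mice and 4.79, 10.7, 13.8, 9.77 and 10.0 TPM in the PBMC-hCG mice. PBMC-hCG 1 lay within the range of the IF mice, and the other 4 PBMC-hCG mice were above every IF mouse. The log2 fold change was 1.19 (SE 0.31, 95% confidence interval 0.54 to 1.84, adjusted p 0.0307), a 2.28-fold rise. The call was lost when some single mice were left out. The adjusted p was 0.0589 without IF 2, 0.0678 without IF 4 and 0.101 without IF 5. It was 0.0804 without PBMC-hCG 2, 0.0867 without PBMC-hCG 3, 0.0665 without PBMC-hCG 4 and 0.0601 without PBMC-hCG 5. Without each of these mice the log2 fold change of Ptgfr was between 1.05 and 1.2. The calls among all genes then fell from 2544 to between 0 and 34, so the loss was not particular to Ptgfr. The adjusted p stayed under 0.05 without IF 1 (0.0334), IF 3 (0.0151) or PBMC-hCG 1 (0.00838), and the log2 fold change stayed between 1.04 and 1.43 under all 17 alternatives. In the other mice Ptgfr measured 6.06, 3.05, 7.22, 6.35 and 4.76 TPM in control and 8.62, 7.60, 4.68, 7.71 and 2.65 TPM in PBMC. The PBMC mice were spread from below all control and IF mice, in PBMC 5, to above all of them, in 3 mice. Against control the log2 fold change of Ptgfr in PBMC-hCG was 0.81 (SE 0.31, adjusted p 0.0546, with 4 of 5 mice above all control mice); the adjusted p was 0.0459 without control 3 and 0.0123 without PBMC-hCG 1, but 0.123 without control 2 and 0.139 without PBMC-hCG 3, and its range over the 17 alternatives was 0.0123 to 0.139.

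Ptger4, whose receptor EP4 raises cAMP and which was the most abundant of the family, shared its lowest mouse with Ptgfr in the IF, PBMC and PBMC-hCG groups. Ptger4 measured 54.1, 64.4, 55.9, 51.4 and 38.1 TPM in control, 46.8, 52.5, 55.9, 42.4 and 27.1 TPM in IF, 64.3, 57.3, 39.7, 66.7 and 23.1 TPM in PBMC, and 45.1, 82.8, 89.4, 82.0 and 78.2 TPM in PBMC-hCG. PBMC-hCG 1 was within the range of the IF mice and the other 4 PBMC-hCG mice were above all mice of the other groups. IF 5, PBMC 5 and PBMC-hCG 1 were the lowest of their groups for both Ptger4 and Ptgfr, and IF 3 and PBMC-hCG 3 were the highest of their groups for both. Such sharing was not particular to this pair. Ptgdr2 was also lowest in IF 5 and PBMC 5 and highest in IF 3 and PBMC-hCG 3, though its lowest PBMC-hCG mouse was PBMC-hCG 5. PBMC 5 was the lowest PBMC mouse for Ptger2, Ptgir and Tbxa2r too. The highest PBMC mice differed, PBMC 4 for Ptger4 and PBMC 1 for Ptgfr, and control 2 was the highest control mouse for Ptger4 and the lowest for Ptgfr. The log2 fold change of Ptger4 in PBMC-hCG against IF was 0.75 (SE 0.27, 95% confidence interval 0.2 to 1.31), and at an adjusted p of 0.0613 it was not called. The adjusted p was 0.0368 without IF 3 and 0.022 without PBMC-hCG 1, and its range over the 17 alternatives was 0.022 to 0.194. Ptger3 in the same comparison had a log2 fold change of 0.37 (SE 0.13, adjusted p 0.0641) with 2 of 5 PBMC-hCG mice above all IF mice; the adjusted p was 0.0397 without IF 1, within a range of 0.0397 to 0.156.

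The comparison between the injected groups covers the hormone. Hormone that acted on the cells in culture is not separated there from any carried into the horn. Limma called 0 of the 9 receptors, and among all genes 0.00535% were called higher and 0.00535% lower. At an unadjusted p under 0.05 there were 4 receptors and 3024 genes. The 4 receptors were Ptgfr with a log2 fold change of 0.68 (SE 0.31, adjusted p 0.3), Ptger4 with 0.65 (SE 0.27, adjusted p 0.286), Ptgdr2 with 0.52 (SE 0.2, adjusted p 0.283) and Ptger1 with -0.35 (SE 0.14, adjusted p 0.283). For both Ptgfr and Ptger4, 4 of 5 PBMC-hCG mice were above all PBMC mice. The median over the 9 receptors was 0.08, beside 0.02 over all genes.

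**Figure D2:**
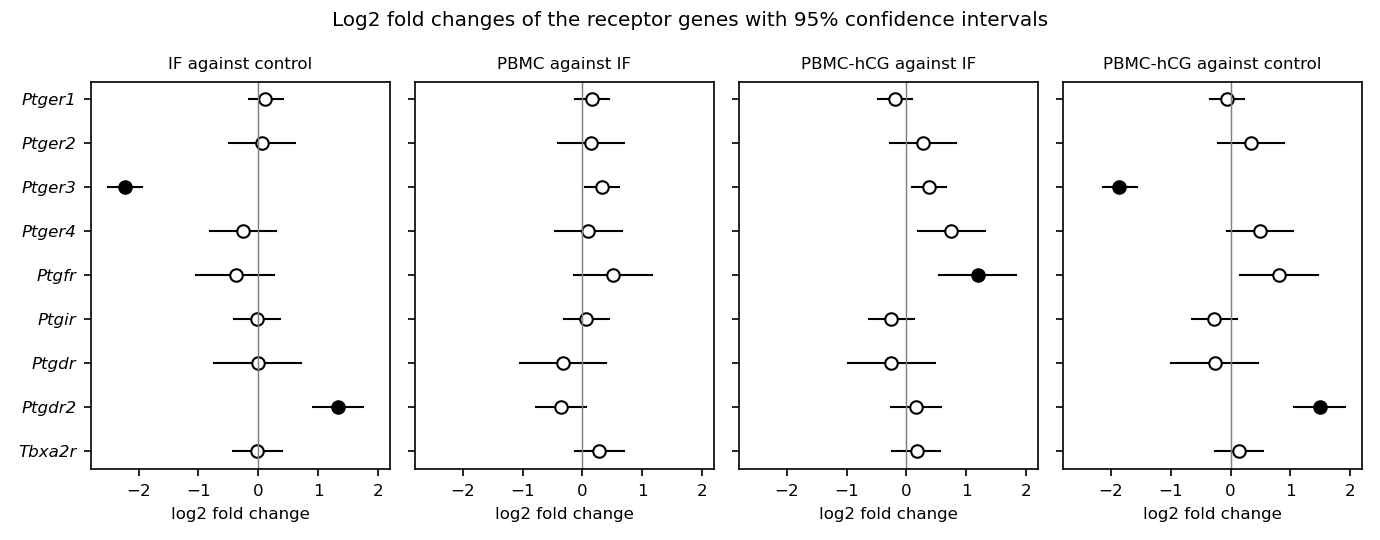
Log2 fold change (horizontal axis) of each of the 9 receptor genes (vertical axis) in 4 comparisons, with bars for the 95% confidence interval and filled points for an adjusted p under 0.05. Ptger3 lies at -2.23 in IF against control and at 0.37 in PBMC-hCG against IF, and Ptgfr at 1.19 in PBMC-hCG against IF is the filled point among the 9 in that comparison.

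The remaining 5 receptors, like Ptger4, were called in none of the 6 comparisons. Ptger2, whose receptor EP2 raises cAMP like EP4, had the widest range of them in TPM, from 10.9 TPM in control 2 to 32.7 TPM in PBMC-hCG 3, and its log2 fold changes ran from 0.06 in IF against control to 0.34 in PBMC-hCG against control (SE 0.26 each). Ptger1, the calcium-linked EP1 receptor, ranged from 3.15 to 5.49 TPM over the 20 mice, with group means between 3.84 TPM in PBMC-hCG and 4.93 TPM in PBMC. Ptgir, the prostacyclin receptor of vessel walls and platelets, ranged from 2.68 to 6.86 TPM, both extremes being IF mice, and 4 of 5 PBMC-hCG mice were below all PBMC mice. Tbxa2r, the receptor through which thromboxane A2 activates platelets and contracts smooth muscle, ranged from 2.2 to 5.32 TPM. Ptgdr, the receptor DP1 that raises cAMP, stayed between 0.575 and 1.49 TPM in every mouse but control 2. In IF against control the 95% confidence interval of the log2 fold change was -0.49 to 0.61 for Ptger2, -0.16 to 0.41 for Ptger1, -0.4 to 0.36 for Ptgir, -0.42 to 0.39 for Tbxa2r and -0.74 to 0.71 for Ptgdr.

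Because EP2 and EP4 raise cAMP and EP3 lowers it, the shares of Ptger2, Ptger3 and Ptger4 in the summed EP transcripts were computed in each mouse. The 4 EP genes summed to 126 ± 15.5 TPM in control, 81.3 ± 16.1 TPM in IF, 91.3 ± 22.4 TPM in PBMC and 118 ± 20.1 TPM in PBMC-hCG. Ptger3 made up 38.2 ± 3.01% of the sum in control, 12.9 ± 3.25% in IF, 14.6 ± 4.09% in PBMC and 11.4 ± 2.33% in PBMC-hCG. The lowest control share, 34.8%, was above the highest share in any other group, 21.7% in PBMC. Ptger4 made up 42.0 ± 5.83% in control, 55.0 ± 8.63% in IF, 53.4 ± 9.19% in PBMC and 63.3 ± 6.2% in PBMC-hCG. Ptger2 made up 16.6 ± 4.69% in control, 26.4 ± 5.82% in IF, 26.1 ± 5.05% in PBMC and 21.9 ± 4.15% in PBMC-hCG. A lower Ptger3 level by itself raises the shares of the other genes: mean Ptger4 was 52.8 TPM in control and 44.9 TPM in IF. Thus the sum in PBMC-hCG was near that of control and its make-up was not: the lowest Ptger4 share in PBMC-hCG, 52.9%, was above the highest in control, 52.0%. These shares were not tested.

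**Figure D3:**
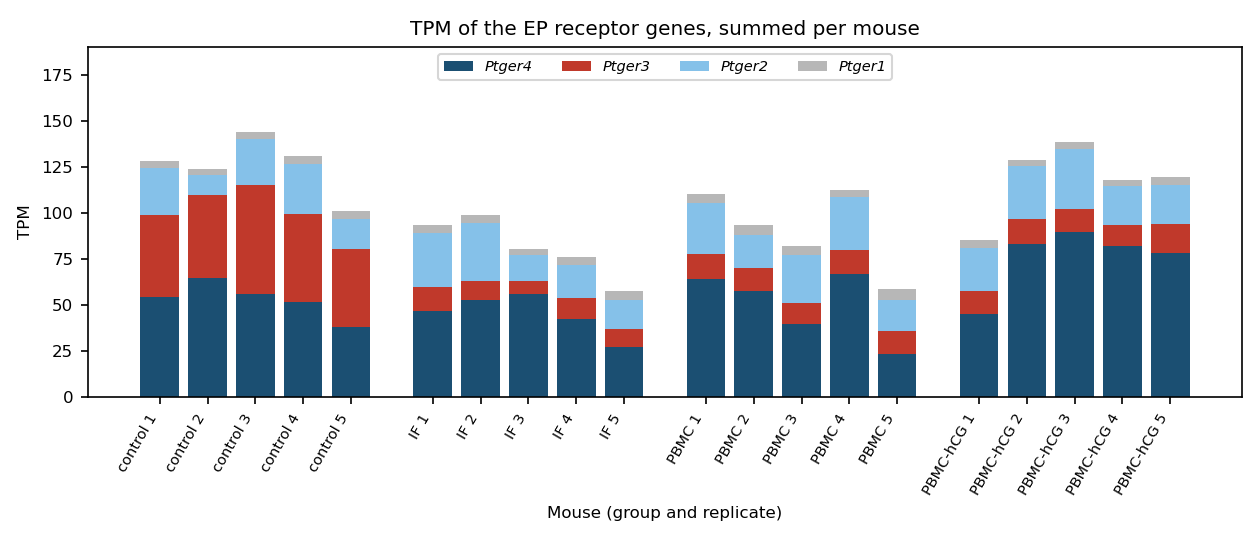
Summed level of the 4 EP receptor genes (vertical axis, TPM) in each of the 20 mice (horizontal axis, by group), stacked by gene. The group means of the sum were 126 TPM in control, 81.3 TPM in IF, 91.3 TPM in PBMC and 118 TPM in PBMC-hCG, with Ptger3 at 38.2%, 12.9%, 14.6% and 11.4% of it.

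The ligands were followed through 18 genes of prostaglandin synthesis, transport and breakdown, of which 17 were tested; Ptgds, a prostaglandin D2 synthase, was listed at 0 TPM in 7 libraries. In IF against control 2 were called higher, 3 lower and 12 not, with a median of -0.13. The shares of all genes called, given with the receptors for each comparison, apply to the counts of the lists too; in IF against control they were 13.4% higher and 8.53% lower. Ptges, the inducible prostaglandin E synthase, rose from 13.0 ± 0.689 to 22.1 ± 5.78 TPM (log2 fold change 0.72, adjusted p 0.0237). Slco2a1, which carries prostaglandins into cells, rose from 18.7 ± 2.72 to 28.6 ± 5.93 TPM (0.59, adjusted p 0.0191). The 3 lower genes were Pla2g4a, the phospholipase that frees arachidonic acid (-0.49, adjusted p 0.00982), Akr1b3, a prostaglandin F synthase (-0.49, adjusted p 0.0136), and Prxl2b, another prostaglandin F synthase (-0.44, adjusted p 0.00733). Akr1b3 was also lower in PBMC (-0.45, adjusted p 0.0228) and PBMC-hCG (-0.66, adjusted p 0.00122) than in control, with group means of 119 TPM in control, 85.2 TPM in IF, 86.2 TPM in PBMC and 74.9 TPM in PBMC-hCG. It was the single gene called in PBMC against control, where 0 were higher and 16 not called, with a median of -0.1. In PBMC-hCG against control 1 was higher, 3 lower and 13 not, with a median of -0.04: Hpgd was higher (0.54, adjusted p 0.0418) and Ptges2 (-0.46, adjusted p 0.00657), Ptges3 (-0.46, adjusted p 0.0249) and Akr1b3 were lower. Several of these calls depended on a mouse or on the fit: Ptges (adjusted p 0.0731) and Slco2a1 (0.0595) were not called in IF without IF 5, nor was Akr1b3 with only the 2 groups fitted (0.0723). In PBMC Akr1b3 was not called without control 1, control 3, control 5 or PBMC 4 (adjusted p up to 0.061). In PBMC-hCG Hpgd was not called without control 1, 4 or 5 or PBMC-hCG 2, 3, 4 or 5 (up to 0.116), nor Ptges3 without control 1 or 5 or PBMC-hCG 3, 4 or 5 (up to 0.0745). Hpgd was also not called there with no filter (0.0694) or with quantile normalization (0.0587).

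In PBMC-hCG against IF 4 of the 17 ligand genes were called higher, 4 lower and 9 not, with a median of 0.0. Ptgs2, the inducible cyclooxygenase-2, measured 3.22 ± 1.79 TPM in IF and 0.822 ± 0.619 TPM in PBMC-hCG (log2 fold change -1.87, SE 0.55, adjusted p 0.0385); it measured 1.39 ± 0.715 TPM in control and 3.96 ± 3.99 TPM in PBMC. Ptges, at 13.5 ± 5.42 TPM in PBMC-hCG (-0.74, SE 0.22, adjusted p 0.039), and Slco2a1, at 19.2 ± 5.64 TPM (-0.59, SE 0.17, adjusted p 0.038), were lower than in IF, and Ptges2 was the other lower gene. Hpgd, which inactivates prostaglandins by oxidation, rose from 37.1 ± 12.1 to 59.5 ± 14.0 TPM (0.7, SE 0.2, adjusted p 0.0344). Pla2g4a (0.43, SE 0.13, adjusted p 0.0379), Prxl2b (0.4, SE 0.11, adjusted p 0.0334) and Ptgr2 were the other higher genes. None of these 8 calls held under all 17 alternatives: the count was 0 without IF 2, IF 4, IF 5, PBMC-hCG 2, PBMC-hCG 3, PBMC-hCG 4 or PBMC-hCG 5, 6 without IF 1, 9 without IF 3 and 10 without PBMC-hCG 1. Under the alternatives that left out no mouse the count of ligand genes ran from 0 to 9. In the other lists too the count of this comparison was 0 without any of those 7 mice. The adjusted p of Ptgs2 ran from 0.0151 to 0.126, that of Ptges from 0.00733 to 0.128 and that of Hpgd from 0.00893 to 0.114, with no change of sign. In PBMC against IF (median 0.03) and in PBMC-hCG against PBMC (median 0.01) 0 of the 17 were called.

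The next list held 26 genes for G protein alpha subunits, adenylyl cyclases and beta-type phospholipases C, of which 25 were tested. In IF against control 4 were called higher (13.4% of all genes), 3 lower (8.53% of all genes) and 18 not, with a median of 0.13. Gnai1, an inhibitory subunit of the kind EP3 uses, fell from 46.1 ± 7.29 to 25.8 ± 2.48 TPM (log2 fold change -0.83, SE 0.1, adjusted p 1.31e-05). Gnai1 was at 25.6 ± 2.39 TPM in PBMC (-0.83, adjusted p 1.48e-05 against control) and 29.1 ± 1.57 TPM in PBMC-hCG (-0.65, adjusted p 0.000124), and it was the single gene of the list called lower than control in those groups. Gnaz (-0.65, adjusted p 0.027), also an inhibitory subunit, and the cyclase Adcy3 (-0.31, adjusted p 0.0235) were lower in IF too. The cyclase Adcy4 (0.55, adjusted p 0.000196), Gna14 of the Gq family (0.43, adjusted p 0.0357), Gna13 (0.42, adjusted p 0.000158) and Gna12 were higher in IF. Against control 6 genes were higher in PBMC (median 0.09, 18 not called) and 9 in PBMC-hCG (median 0.13, 15 not called). The largest rises among the called genes were in Adcy4 (0.48), Gna14 (0.48) and Gnao1 (0.33) for PBMC and in Gnal (0.73), Gna14 (0.7) and Adcy7 (0.44) for PBMC-hCG. Leaving out a mouse took the call from Gna14 in IF (control 1, 2, 3 or 4 or IF 1, 2 or 3, adjusted p up to 0.103), from Gnaz (control 1, 3 or 5 or IF 2 or 5, up to 0.0822) and from Adcy3 (control 1, 3 or 4 or IF 5, up to 0.0681). In PBMC it took the call from Gna14 (control 3 or PBMC 1, 2 or 4, up to 0.0711) and Gnao1 (control 2 or PBMC 1, 2 or 4, up to 0.065), and the list's count of 7 was 4 without PBMC 1, PBMC 2 or PBMC 4. In IF the count of 7 was 4 without control 1, and with only the 2 groups fitted the counts of IF and of PBMC against control were both 3. Between PBMC-hCG and IF, 2 were higher in PBMC-hCG, Gnaz (0.68, adjusted p 0.04) and Adcy9 (0.43, adjusted p 0.0279), 0 were lower and 23 were not called, with a median of 0.05; the count was 0 without any of the same 7 mice and 4 without IF 3. In PBMC against IF (median 0.01) and PBMC-hCG against PBMC (median 0.07) 0 of the 25 were called.

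Among 25 effectors of cAMP and calcium, all tested, 14 were called higher in IF than in control (13.4% of all genes), 1 lower (8.53% of all genes) and 10 not, with a median of 0.35. Pde7b, a phosphodiesterase that breaks down cAMP, rose from 6.47 ± 0.551 to 15.6 ± 3.15 TPM (log2 fold change 1.23, SE 0.12, adjusted p 1.09e-06), and Pde4b, another, from 10.4 ± 2.47 to 21.4 ± 4.81 TPM (1.05, SE 0.24, adjusted p 0.00417). Crem, a transcription factor of the cAMP response, rose from 19.9 ± 5.65 to 43.2 ± 18.5 TPM (1.06, SE 0.32, adjusted p 0.0218). Prkar2b, a regulatory subunit of protein kinase A, fell from 9.13 ± 0.693 to 5.79 ± 0.733 TPM (-0.65, SE 0.11, adjusted p 0.000324). In PBMC against control 15 were higher (12.8% of all genes), 1 lower (Prkar2b, -0.46, adjusted p 0.0064; 6.7% of all genes) and 9 not, with a median of 0.37, led by Pde7b (1.14), Crem (1.08) and Pde4b (0.92). In PBMC-hCG against control 11 were higher (20.2% of all genes), 2 lower (11.6% of all genes) and 12 not, with a median of 0.2, led by Pde7b (1.0), Prkar1b (0.84) and Itpr2 (0.81); the lower genes were Pde3b (-0.44) and Prkar2b (-0.41). In PBMC-hCG Crem was at 22.5 ± 6.74 TPM and Pde4b at 14.8 ± 3.99 TPM, and neither was called against control. Leaving out a mouse took the call from Crem in IF (control 3, IF 1 or IF 5, adjusted p up to 0.0678) and in PBMC (control 3, PBMC 3 or PBMC 5, up to 0.0626), and from Pde3b in PBMC-hCG (control 1, 3, 4 or 5 or PBMC-hCG 2, 3 or 5, up to 0.101). In PBMC-hCG against IF 1 was higher, the calcium channel gene Itpr2 (0.46, adjusted p 0.0287), and 2 were lower, Rock2 (-0.47, adjusted p 0.0396) and Prkar1a (-0.37, adjusted p 0.0353), with 22 not called and a median of -0.02; the count was 0 without any of the same 7 mice and 5 without IF 3 or PBMC-hCG 1. In PBMC against IF (median 0.02) and PBMC-hCG against PBMC (median -0.01) 0 of the 25 were called.

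The last list held 15 genes, all tested, that desensitize G protein signals or partner with these receptors. In IF against control 6 were higher (13.4% of all genes), 2 lower (8.53% of all genes) and 7 not, with a median of 0.19; the count of 8 was 5 with only the 2 groups fitted. Rgs2, which shortens Gq signals, fell from 480 ± 18.6 to 92.0 ± 8.13 TPM (log2 fold change -2.38, SE 0.1, adjusted p 2.97e-11). It was at 89.6 ± 7.0 TPM in PBMC (-2.42, adjusted p 4.47e-11 against control) and 96.4 ± 20.4 TPM in PBMC-hCG (-2.34, adjusted p 4.28e-11). Rgs5 was the other lower gene in IF (-0.38, adjusted p 0.0472). The receptor kinase Grk3 rose from 6.58 ± 2.3 to 13.5 ± 3.44 TPM (1.05, adjusted p 0.000357), Rgs3 from 44.6 ± 5.17 to 91.0 ± 16.3 TPM (1.02, adjusted p 8.82e-07) and the receptor kinase Grk5 to 16.9 ± 2.94 TPM (0.61, adjusted p 0.00407). Against control 9 were higher and 1 lower in PBMC (median 0.24, 5 not called), led by Rgs3 (0.82), Grk3 (0.81) and Grk5 (0.6). In PBMC-hCG 7 were higher and 2 lower than in control (median 0.17, 6 not called), led by Grk3 (1.03), Rgs3 (1.0) and Arrb1 (0.7), and the lower genes were Rgs2 and Rgs16 (-0.59). Leaving out a mouse took the call from Rgs5 in IF (control 1, 3, 4 or 5 or IF 2, 3, 4 or 5, adjusted p up to 0.127) and from Rgs16 in PBMC-hCG (control 1, 3, 4 or 5 or PBMC-hCG 3 or 4, up to 0.0923). Arrb1, an arrestin (0.36, adjusted p 0.0344), and Rxra (0.21, adjusted p 0.0287) were higher in PBMC-hCG than in IF, Ppard (-0.41, adjusted p 0.0363) was lower and 12 were not called, with a median of -0.02; the count was 0 without any of the same 7 mice and 4 without IF 3. In PBMC against IF (median 0.11) and PBMC-hCG against PBMC (median -0.04) 0 of the 15 were called. The 0 counts of the 4 lists come from limma; over all genes 1271 in PBMC against IF and 3024 in PBMC-hCG against PBMC had an unadjusted p under 0.05.

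A whole horn holds many cell types, and a bulk level cannot separate fewer cells of a type from less RNA in each cell. Lists of marker genes are therefore given beside the receptors, and their part in the result was not tested. Of all genes, 13.4% were called higher and 8.53% lower in IF against control. These shares were 12.8% and 6.7% in PBMC against control and 20.2% and 11.6% in PBMC-hCG against control. In PBMC-hCG against IF they were 7.61% and 5.99%. Summed TPM of 6 smooth muscle genes was 8100 ± 2030 in control, 6640 ± 669 in IF, 6560 ± 546 in PBMC and 5440 ± 435 in PBMC-hCG, with 1 of 6 called in IF against control (Acta2, lower), 0 in PBMC-hCG against IF and 5 lower in PBMC-hCG against control. Summed stroma markers were 5430 ± 699 TPM in control, 7330 ± 484 in IF, 7860 ± 584 in PBMC and 8050 ± 406 in PBMC-hCG, with 2 of 6 higher in IF than in control. All 6 endothelium markers and 5 of 6 epithelium markers were higher in IF than in control. Of the 6 genes of uterine identity 3 were higher (Esr1, Pgr and Wnt7a) and 3 lower (Hoxa10, Hoxa11 and Foxa2) in IF. For the cells in which DP2 is best known, the summed eosinophil markers were 22.8 ± 4.7 TPM in control, 26.9 ± 3.21 in IF, 30.2 ± 7.38 in PBMC and 25.6 ± 11.9 in PBMC-hCG, and 0 of the 4 tested eosinophil genes were called by limma in any comparison. The summed T cell markers were 17.7 ± 3.86 TPM in control, 20.5 ± 5.6 in IF, 24.7 ± 4.38 in PBMC and 21.7 ± 4.72 in PBMC-hCG, with Trac higher than in control in all 3 treated groups and Cd4 in PBMC-hCG. In IF against control 2 of 6 macrophage and monocyte markers were higher and 1 of 4 tested oviduct markers was lower, and 0 of the tested mast cell, platelet, B cell and ovary markers were called. Both PBMC and PBMC-hCG against control had 6 of 6 endothelium and 4 of 6 epithelium markers higher, 3 stroma markers higher and 1 lower (Hand2), and Esr1, Pgr and Wnt7a higher with Hoxa10 and Hoxa11 lower. PBMC against control also had 2 oviduct markers lower. PBMC-hCG against control also had Foxa2, Pf4 of platelets and 1 oviduct marker lower, and 2 macrophage and monocyte markers and Ighm of B cells higher. In PBMC-hCG against IF the markers called were Hoxa10, Krt8 of the epithelium, Pdgfra of the stroma and Emcn of the endothelium, each higher. These calls did not hold without IF 5 or PBMC-hCG 3, where the count of all genes called was 0.

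On the mouse assembly GRCm38.p6 the 4 receptor genes given mouse by mouse above are Ptger3 (NCBI gene 19218, chr3:157566821-157644758), Ptgdr2 (14764, chr19:10924519-10942511), Ptgfr (19220, chr3:151798610-151837528) and Ptger4 (19219, chr15:5233399-5244187). Ptgfr and Ptger3 lie on the same chromosome, 5729292 bases apart. The others are Ptger1 (19216, chr8:83666644-83672756), Ptger2 (19217, chr14:44988111-45003820), Ptgir (19222, chr7:16906490-16910905), Ptgdr (19214, chr14:44851235-44859375) and Tbxa2r (21390, chr10:81328268-81335174). Ptgdr and Ptger2 are 128735 bases apart. Ptgdr2 shares bases with Ccdc86, whose transcripts could be counted with it if strand was not used when reads were assigned to genes. The libraries were stranded, but whether strand was used at that step is not given in the sources used here. Ccdc86 measured 16.8 ± 3.33 TPM in control and 17.4 ± 4.1 TPM in IF (log2 fold change 0.05, adjusted p 0.9). It was lower in PBMC-hCG than in control (-0.61, adjusted p 0.0251) and than in IF (-0.66, adjusted p 0.0405). The count of all genes called in PBMC-hCG against IF was 0 without IF 5 or PBMC-hCG 3.

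Promoter sequences were 300 bases, from 250 before to 50 after a start listed for the gene (GRCm38.p6, RefSeq). They were matched for 8 of the 9 genes, Ptger1 having no entry, and gave 9 promoters because Tbxa2r has 2. The windows of Ptger3 (chr3:157566626-157566925), Ptgdr2 (chr19:10936910-10937209) and 1 of Tbxa2r (chr10:81328453-81328752) were set on starts inside the gene spans given above. That of Ptger3 lay partly before its span, and those of Ptgdr2 and Tbxa2r lay wholly inside theirs. Both strands were searched for GGTCA, the core shared by many nuclear receptor sites, for GGGCGG, the GC box, and for the estrogen response element, which contains GGTCA. Over all 32851 promoters 40.5% held GGTCA, 35.7% GGGCGG and 0.07% the estrogen response element. None of the 9 promoters held the estrogen response element. GGGCGG was found 3 times in the promoter of Ptger3, 4 times in that of Ptger4, 2 times each in those of Ptgfr and Ptgir, and 1 time each in that of Ptgdr2 and in 1 of Tbxa2r. Of the 3 matches of Ptger3, 1 lay wholly before its gene span, and the matches of Ptgdr2 and Tbxa2r lay inside theirs. GGTCA was found 2 times in the promoter of Ptgfr and 4 and 1 times in those of Tbxa2r, and neither was found in those of Ptger2 and Ptgdr. The stretches upstream of the annotated transcripts are printed for Ptger3, which fell with RU486, and for Ptgfr and Ptger4, which shared the lowest mouse in the IF, PBMC and PBMC-hCG groups, 5′ to 3′ on the gene's strand, with capitals for matches to GGTCA or GGGCGG on either strand. They are chr3:157566626-157566820 on the plus strand (195 bases, 56.9% G or C), chr3:151837631-151837778 on the minus strand (148 bases, 43.9%) and chr15:5244188-5244437 on the minus strand (250 bases, 66.8%). The stretch of Ptger3 holds 1 match, that of Ptgfr 1 and that of Ptger4 4, of which the first pair overlap by a base. A match is a description of the letters and not a site of binding.
Ptger3: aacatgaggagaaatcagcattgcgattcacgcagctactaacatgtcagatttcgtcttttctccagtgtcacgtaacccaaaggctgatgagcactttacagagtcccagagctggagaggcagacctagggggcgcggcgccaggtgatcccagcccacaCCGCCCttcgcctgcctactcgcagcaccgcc
Ptgfr: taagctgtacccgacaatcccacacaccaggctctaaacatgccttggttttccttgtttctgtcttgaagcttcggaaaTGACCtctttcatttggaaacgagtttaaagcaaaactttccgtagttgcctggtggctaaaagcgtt
Ptger4: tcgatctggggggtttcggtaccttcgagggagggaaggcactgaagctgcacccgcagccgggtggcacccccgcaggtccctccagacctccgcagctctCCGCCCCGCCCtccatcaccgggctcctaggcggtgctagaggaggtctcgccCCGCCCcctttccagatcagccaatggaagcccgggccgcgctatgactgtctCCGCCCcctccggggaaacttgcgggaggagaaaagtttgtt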

How the data were processed

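RNA from 20 uterine horns (4 groups of 5 mice) was sequenced by the authors from stranded mRNA libraries. The authors trimmed reads with Trimmomatic, mapped them to mm10 with HISAT2 and assembled them with StringTie, and deposited TPM per gene; versions are not stated. Their count test cannot be run on TPM. Genes above 0 TPM in all 20 libraries (18706 of 45777) were fitted as log2(TPM + 0.1) with limma 3.58.1 (R 4.3.3, variance trend, 4 groups in 1 fit), adjusted by Benjamini-Hochberg within each of 6 comparisons and called at an adjusted p under 0.05. Tables and plots used Python 3.11.15, pandas 2.3.3, numpy 2.4.6 and matplotlib 3.10.9; the fit was tested on simulated data. All 9 receptors are named, as are, per list, comparison and direction, up to 3 called genes of at least 1 TPM with the largest fold changes; other list and marker genes were named after their values were seen. The members and lists were chosen with earlier results of these data known. Alternatives were the pseudocount, the filter, quantile normalization, the groups fitted, a replicate block and leaving out each mouse. Depth is unknown, so no counting interval is given. Protein sequences were not used here, and the values of some genes are not reported here.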

Additional observations from a re-analysis of the deposited data

Results flagged for a closer look

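Each of the 9 receptors was screened in each of the 4 groups, 36 groups of 5 values, for a mouse whose gap to its nearest neighbour exceeded 0.71 of the group's range (Dixon's 95% critical value); chance gives about 1 in 20, and 2 were found. Ptger4 in PBMC-hCG replicate 1, at 45.1 TPM, was far below the other 4 mice of its group (ratio 0.746), and the adjusted p of PBMC-hCG against IF was 0.022 without it and 0.0613 with it, within a range of 0.022 to 0.194 over 17 alternatives. Ptgdr in control replicate 2, at 3.69 TPM, was far above the other control mice (ratio 0.925). Control replicate 2 was also the lowest control mouse for Ptger1, Ptger2, Ptgfr, Ptgir and Tbxa2r and the highest for Ptger4 and Ptgdr2. Its summed stroma and smooth muscle markers, 4210 and 5900 TPM, were the lowest of the controls and its summed epithelium markers, 1020 TPM, the highest. Without it Ptger3 in IF against control had a log2 fold change of -2.25 (adjusted p 1.43e-08) and Ptgdr2 of 1.43 (adjusted p 5.7e-05), within ranges of 9.42e-10 to 3.21e-05 and 3.12e-05 to 0.00167 over their alternatives. No cause was tested for either mouse.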

How the results depend on the processing

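The 9 receptors in 6 comparisons under 17 alternatives each gave 901 results on the same side of the threshold, 9 newly called, 8 no longer called and 0 called with the opposite sign. The calls of Ptger3 and Ptgdr2 against control held in all 17: in IF against control the log2 fold change ran from -2.31 to -2.1 for Ptger3 and from 1.02 to 1.45 for Ptgdr2. The 8 lost calls were all Ptgfr in PBMC-hCG against IF, under no filter (adjusted p 0.0503) and without 7 single mice. The 9 new calls were 4 for Ptger4 and 1 for Ptger3 in PBMC-hCG against IF and 4 for Ptgfr in PBMC-hCG against control.

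The receptors called in PBMC-hCG against IF numbered 1, but 0 with no filter, 2 with only the 2 groups compared, 2 with a replicate block, and 0 to 2 leaving out a mouse. Fewer mice or more genes tested enter these counts; otherwise the cause was not tested. The replicate number did not pair mice (2 of 20 mice were most like a mouse of the same number), so the block is a formal alternative; under it Ptger4 had an adjusted p of 0.0348 and with only the 2 groups 0.0494.

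Genes called in IF against control were 4104, 2473 with only the 2 groups compared, and 3323 to 5012 leaving out a mouse. In PBMC against IF they were 0, 1 with no filter, and 0 to 2 leaving out a mouse (2 without IF 1), beside 1271 at an unadjusted p under 0.05 in limma. In PBMC-hCG against IF they were 2544, 812 with no filter, and 0 to 5061 leaving out a mouse: 0 without IF 5 or PBMC-hCG 3, 1 without PBMC-hCG 2, 8 without IF 2, 14 without IF 4, 18 without PBMC-hCG 4, 34 without PBMC-hCG 5, 4166 without PBMC-hCG 1 and 5061 without IF 3. The threshold of that comparison thus rests on single mice. In PBMC-hCG against PBMC they were 2, 1 with a pseudocount of 1, 1 with a mean of at least 1 TPM, and 2 to 7 leaving out a mouse (7 without PBMC-hCG 1). Of the called genes in the 4 ligand and signal lists, 20 of 35 in IF against control, 0 of 16 in PBMC-hCG against IF, 21 of 34 in PBMC against control and 26 of 36 in PBMC-hCG against control kept their call in all alternatives, with 0 changes of sign.

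Transcript levels of whole horns do not show receptor protein, the cell type that holds it or the splice forms of EP3. The TPM carry no counts, so low levels such as those of Ptgdr have no counting error here, and a difference that missed the threshold is not shown to be absent. Each group has 5 mice of unknown batch.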

Other observations

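For each receptor the most similar genes (up to 3) by Pearson r of log2(TPM + 0.1) over the 20 mice, among 15770 genes of at least 1 TPM, are given as a description and were not tested. For Ptger3 they were Tcf23 (r 0.965, rho 0.783), Tkt (r 0.959, rho 0.729) and Pi15 (r 0.958, rho 0.768), each high in the control mice and low in the other groups, so these r rest on the gap between control and the rest. Tcf23 measured 144 ± 14.2 TPM in control, 16.7 ± 0.708 in IF, 22.1 ± 4.54 in PBMC and 19.6 ± 3.47 in PBMC-hCG. For Ptgdr2 they were Tmem229a (r 0.947, rho 0.863), Setd7 (r 0.937, rho 0.901) and Rap1gap2 (r 0.93, rho 0.863), each low in control; Tmem229a measured 1.79 ± 0.483 TPM in control and 10.3 ± 3.87 in IF. For Ptgfr they were Srd5a3 (r 0.934, rho 0.95) and Pabpc4l (r 0.931, rho 0.959). For Ptger4 they were Cep83os (r 0.959, rho 0.941), Rftn2 (r 0.953, rho 0.928) and Slc39a3 (r 0.952, rho 0.919), and Rftn2 measured 12.2 ± 1.25 TPM in control, 9.86 ± 3.25 in IF, 11.8 ± 3.84 in PBMC and 17.6 ± 3.69 in PBMC-hCG. The most similar gene was Tpcn2 for Ptger1 (r 0.873, rho 0.839), Fam3c for Ptger2 (r 0.852, rho 0.774), Mrpl27 for Tbxa2r (r 0.835, rho 0.755), Malat1 for Ptgdr (r 0.82, rho 0.602) and Gm13889 for Ptgir (r 0.712, rho 0.729). Ptgdr measured 3.69 TPM in control 2 and at most 1.49 TPM in the other mice. Whether its r rests on that mouse was not tested.

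The summed marker levels not given above were, in control, IF, PBMC and PBMC-hCG, 647, 567, 550 and 603 TPM for uterine identity, 704, 920, 1000 and 1090 TPM for epithelium, 442, 573, 597 and 640 TPM for endothelium, 222, 138, 177 and 181 TPM for mast cells, 37.4, 41.6, 35.7 and 57.7 TPM for B cells, 27.3, 27.5, 25.1 and 21.2 TPM for platelets, 409, 419, 428 and 445 TPM for macrophages and monocytes, 14.9, 13.1, 15.1 and 16.6 TPM for the ovary and 62.4, 49.9, 50.0 and 51.9 TPM for the oviduct.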
